A study of Mus musculus with 22 samples.

Results

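To ask how RNA polymerase II (PolII) occupancy changed between mid-G1 and late-G1 in cells that lack CTCF, 5 PolII ChIP-seq peak lists from auxin-treated cells were compared, 3 from mid-G1 (120 min after nocodazole release) and 2 from late-G1 (240 min). The peaks of these lists were merged where they overlapped by 1 bp or more, which gave 137972 regions, against 169903 when the peaks of all 18 PolII lists of the series were merged. Of the 137972 regions, 25441 (18.4%) were detected in all 5 lists and could be compared by strength. All groups used here are G1E-ER4 cells, a murine erythroblast line derived from GATA1-null cells, in which both CTCF alleles carry the AID-mCherry degron tag and OsTiR was delivered by retrovirus. Cells were arrested in prometaphase with nocodazole and released, the treated groups received auxin late in the arrest and throughout release, and G1 cells without mCherry signal were sorted by DNA content. GEO's labels place both late-G1 lists in the auxin group. The study's own file lists name late-G1 auxin replicate 1 among the reads but have a control library of that number in its place among the peak files, and its reporting form says that a late-G1 replicate was removed, so it is uncertain whether late-G1 replicate 1 was auxin treated. List medians are therefore also given without it. The control lists, 3 from mid-G1 and 2 from late-G1, come from the same line without auxin, sorted as mCherry positive. The series covers 22 samples in all, 4 of them input chromatin, 1 per stage. The replicates are described by the study as biological, and the line is a single engineered subline, so the p-values below measure the spread between these libraries only.

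PolII leaves most of the genome in mitosis and reloads at promoters as cells enter G1. After initiation it usually pauses just downstream of the start site, is released into the gene body, and terminates past the gene end. CTCF binds insulator sites and, with cohesin, anchors chromatin loops and domain boundaries. Genes for the mitotic apparatus are transcribed periodically and are typically low in G1, whereas targets of p53 such as Cdkn1a respond to stress, prolonged mitotic arrest included.

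The lists describe erythroid precursor cells. A peak over the transcription start site (TSS) was present in all 5 lists for 10 of 10 erythroid precursor markers (among them Gata2, Kit, Tal1 and Tfrc). Of 21 annotated markers of other lineages 19 had no TSS peak in any list, and the exceptions were the megakaryocyte genes Itga2b, in all 5, and Pf4, in 1. The mid-G1 lists held 99936, 107666 and 74672 peaks and the late-G1 lists 88511 and 74154. Read depth, recovered from the peak values, was 8.00 to 9.27 reads per kb of genome in the 5 lists and 4.54 in control mid-G1 replicate 1. Each peak list was called against the input of its own stage, so stage and input cannot be told apart in any value that uses the input.

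The promoter sequences on which the results turn are shown first (mm9, plus strand, annotated exons left out). Capitals mark motif matches on either strand. The letters searched were CCAAT for the CCAAT box and GGGCGG for the GC box, the sites of NF-Y and of Sp1. A GATA motif was searched as AGATAA. The ETS motif was searched as CCGGAAG and the cAMP response element (CRE) as TGACGTCA. In Zmat3 the capitals mark an adjoining pair of p53 elements. The first pair, Top2a (chr11:98885504-98885636) and Bub1 (chr2:127657602-127657736), are promoters of mitotic genes and hold 3 and 2 CCAAT boxes.
Top2a: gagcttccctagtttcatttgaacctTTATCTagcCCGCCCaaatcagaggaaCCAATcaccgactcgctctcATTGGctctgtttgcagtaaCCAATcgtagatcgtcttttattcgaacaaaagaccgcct
Bub1: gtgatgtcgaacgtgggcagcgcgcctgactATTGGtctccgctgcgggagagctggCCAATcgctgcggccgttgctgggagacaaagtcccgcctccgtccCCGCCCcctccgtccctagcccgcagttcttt
Cdkn1a (chr17:29230601-29230716, immediately before the TSS) and Zmat3 (chr3:32263244-32263423, an intron) are from p53 target genes.
Cdkn1a: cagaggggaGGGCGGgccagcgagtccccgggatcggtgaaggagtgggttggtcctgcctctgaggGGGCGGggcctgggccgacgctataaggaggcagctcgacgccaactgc
Zmat3: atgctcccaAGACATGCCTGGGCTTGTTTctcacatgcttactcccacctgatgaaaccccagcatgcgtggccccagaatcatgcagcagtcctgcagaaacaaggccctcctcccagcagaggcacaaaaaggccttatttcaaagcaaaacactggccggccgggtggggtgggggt
Rpl24 (chr16:55973755-55973916) stands for the ribosomal protein genes.
Rpl24: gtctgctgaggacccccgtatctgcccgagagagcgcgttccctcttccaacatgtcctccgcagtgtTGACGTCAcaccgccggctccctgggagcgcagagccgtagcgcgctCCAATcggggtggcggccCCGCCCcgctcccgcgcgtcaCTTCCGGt
The remaining windows are from regions called by rank, the shared promoter of Btf3l4 and Txndc12 (chr4:108506726-108506905), Tfrc (chr16:32609123-32609268, first intron side of the TSS) and Nat10 (chr2:103601428-103601607).
Btf3l4 and Txndc12: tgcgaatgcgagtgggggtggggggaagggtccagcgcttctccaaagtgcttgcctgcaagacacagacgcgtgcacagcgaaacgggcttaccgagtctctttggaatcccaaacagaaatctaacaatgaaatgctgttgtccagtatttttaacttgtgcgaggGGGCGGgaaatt
Tfrc: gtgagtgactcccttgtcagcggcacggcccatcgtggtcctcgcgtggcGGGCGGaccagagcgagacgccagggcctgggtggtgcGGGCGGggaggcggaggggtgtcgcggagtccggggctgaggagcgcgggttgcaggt
Nat10: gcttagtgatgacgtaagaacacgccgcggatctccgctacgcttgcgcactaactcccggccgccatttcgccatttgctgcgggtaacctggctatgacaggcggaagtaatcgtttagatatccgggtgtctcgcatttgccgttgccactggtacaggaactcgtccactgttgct

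Mitotic genes stood higher among PolII peaks in late-G1 than in mid-G1. Each peak's read pileup, the number of reads over its summit, was recovered from the deposited fold enrichment and p-value, regions were ranked by pileup within each list (rank 1 strongest), and the stages were compared on −log2 rank, where a change of 1 means that the rank number fell by a factor of 2. The pileup itself does not use the input, but only peaks called against the input of their stage were ranked. Of the 25 mitotic genes listed, 22 had a TSS region in all 5 lists, Bub1b and Cenpf were detected in fewer and Aurka in none. Both late-G1 lists ranked above all 3 mid-G1 lists at 14 of these 22 regions and below them at 2, where 14.5% and 16% of the 8359 regions with a protein-coding TSS did so. The median change over the list was 0.735, against −0.02 over the 8359 regions. It was 0.50 without late-G1 replicate 1 and 0.85 without replicate 2 (a check chosen after seeing the data). No member passed the test across all regions in either ranking, and 10 passed an unadjusted p of 0.05 upward and 2 downward (limma, by pileup).

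Top2a, which encodes the topoisomerase that untangles sister chromatids, had pileups of 79, 86 and 68 reads in the mid-G1 lists and 99 and 73 in the late-G1 lists. Its pileup rank went from 2102, 2785 and 3356 to 720 and 1574, without overlap, and its change in fold enrichment rank was 2.18 (limma, Benjamini-Hochberg adjusted p = 0.059). Nek2, a centrosome kinase, had 53, 68 and 56 reads in mid-G1 and 88 and 60 in late-G1. Late-G1 replicate 1 was the higher of the pair at both genes, and the ranks of both late-G1 lists stayed above those of the mid-G1 lists. Tpx2, a spindle assembly factor, had 14, 22 and 16 reads in mid-G1 and 42 and 22 in late-G1, so the read values touched while the ranks did not overlap (change in pileup rank 1.42, unadjusted p = 0.0037 in limma). Cdk1, the mitotic cyclin-dependent kinase, had 48, 78 and 52 reads in mid-G1 and 79 and 55 in late-G1. Bub1, a spindle checkpoint kinase, had 11, 21 and 11 reads, then 20 and 19, close to the detection limit. Plk1, the polo-like kinase, had 16, 11 and 16 reads and then 22 and 20. Ttk, Prc1, Aurkb, Espl1, Kif23, Incenp, Kif11 and Cdc20 ranked the same way without overlap.

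Not all mitotic genes followed. Ube2c, the ubiquitin-conjugating enzyme of the anaphase-promoting complex, had 65, 79 and 81 reads in mid-G1 and 44 and 49 in late-G1, a change in pileup rank of −0.81 (unadjusted p = 0.0331 in limma). Ccnb1, which encodes cyclin B1, had 110, 132 and 108 reads and then 83 and 78, a change of −0.75 (unadjusted p = 0.0233 in limma). Both ranked weaker in late-G1 without overlap, while Kif20a, Ccnb2, Pttg1, Birc5, Cenpe and Mad2l1 overlapped between the stages. A CCAAT box lay within 150 bases of the summit in 17 of the 22 mitotic regions (77.3%). The share was 31.5% of all regions with a protein-coding TSS and 32.3% of all 25441 regions. It was 52.6% (10 of 19) in the p53 target regions below, which mostly ranked weaker. Top2a alone holds 3 CCAAT boxes in the window printed above.

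**Figure D1:**
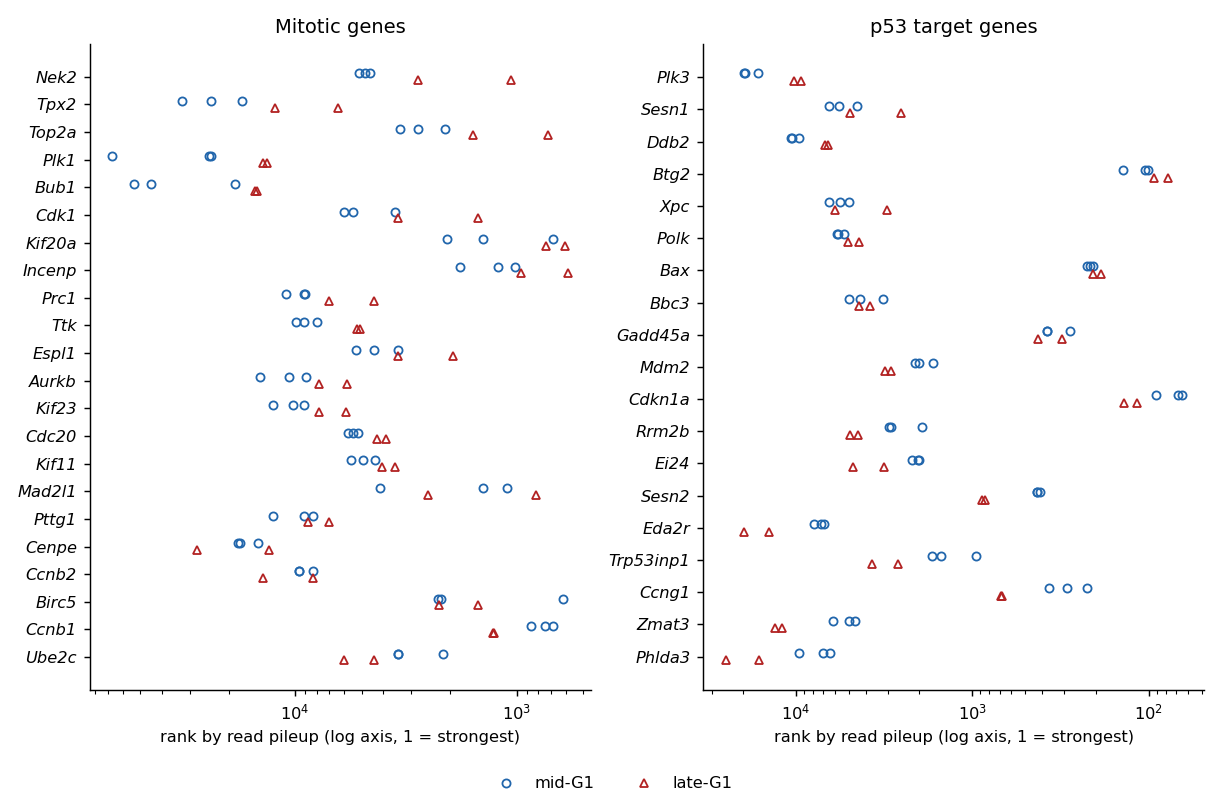
Rank by read pileup (log axis, rank 1 strongest, to the right) of the TSS regions of 22 mitotic genes and 19 p53 target genes; circles are the 3 mid-G1 lists and triangles the 2 late-G1 lists with auxin. Late-G1 triangles lie to the right of all circles at 14 mitotic genes, and to the left of them at 10 p53 targets.

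Targets of p53 mostly stood lower among PolII peaks in late-G1 than in mid-G1. Of 24 listed targets 19 had a TSS region in all 5 lists, and by pileup 10 of these ranked weaker in both late-G1 lists than in all mid-G1 lists and 4 stronger, beside the 16% and 14.5% above. The median change was −0.65 by pileup and −0.20 by fold enrichment, and by pileup −0.60 without late-G1 replicate 1 and −0.67 without replicate 2. Cdkn1a, which encodes the cyclin-dependent kinase inhibitor p21, lay in a region of 11219 bp (chr17:29227475-29238693) and was the only member called. Its pileup was 228, 245 and 213 reads in mid-G1 and 186 and 174 in late-G1. Its fold enrichment rank was 42, 43 and 62 in mid-G1 and 327 and 281 in late-G1, so it left the strongest 100 peaks (change −2.65 ± 0.33, SE, limma adjusted p = 0.0222). Its local background was 1.32, 1.48 and 1.54 expected reads in mid-G1 and 2.84 and 2.46 in late-G1, and by pileup the change was −0.79 (unadjusted p = 0.0234 in limma), without overlap.

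The other p53 targets that ranked weaker in late-G1 were not called. Ccng1, which encodes cyclin G1, had 137, 184 and 152 reads in mid-G1 and 101 and 94 in late-G1. Zmat3, an RNA-binding p53 target, had 54, 68 and 48 reads and then 24 and 21, and its pileup rank went from 4997, 4591 and 6122 to 12044 and 13092. Phlda3, an AKT inhibitor, had 32, 54 and 43 reads and then 19 and 14. At these 3 genes every late-G1 value lay below every mid-G1 value in reads as well as in ranks. Mdm2, the ubiquitin ligase of p53, had 79, 97 and 88 reads in mid-G1 and 62 and 59 in late-G1. Sesn2, a stress-induced regulator of TORC1, had 132, 151 and 131 reads and then 94 and 87. Eda2r, Ei24, Rrm2b and Trp53inp1 ranked the same way without overlap. The 4 members that ranked stronger were Plk3, Ddb2, Polk and Btg2, and Ddb2, the DNA damage recognition factor, had 29, 37 and 29 reads in mid-G1 and 41 and 37 in late-G1.

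The pair of p53 elements in Zmat3 was searched for after these values had been seen. It occurred within 150 bases of the summit in 5 of the 25441 regions (0.0197%), and Zmat3 was the only one of these with a protein-coding TSS. The other 4 lay 49531 bp from the Xiap TSS, 22698 bp from Luc7l3, 21852 bp from Prox2 and 72127 bp from Gli2. The Xiap region had 20, 26 and 23 reads in mid-G1 and 13 and 13 in late-G1, the Luc7l3 region 21, 27 and 17 and then 14 and 11, and the Prox2 region 22, 28 and 32 and then 17 and 12. These 3 and Zmat3 ranked weaker in late-G1 without overlap by pileup, as did 15.4% of all 25441 regions (14.2% ranked stronger), and the Prox2 region was called by fold enrichment (change −1.95, limma adjusted p = 0.0453). The Gli2 region had 24, 23 and 17 reads and then 22 and 20, and overlapped between the stages.

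Genes of ribosomal proteins stood lower more often than higher in late-G1. Of 71 TSS regions 26 ranked weaker without overlap and 3 stronger by pileup, beside the 16% and 14.5% above, and the median change was −0.29 (−0.24 without late-G1 replicate 1, −0.34 without replicate 2). By mid-G1 pileup rank, strong regions tended to fall and weak ones to rise. Past rank 20000, 18.4% of 413 regions with a protein-coding TSS ranked stronger and 5.1% weaker, with a median of 0.25. The classes were cut on mid-G1 ranks, which enter the change, so this drift cannot show that strong regions weakened. Of the 734 regions with a protein-coding TSS ranked 101 to 1000 by pileup in mid-G1, 21.8% ranked weaker and 12.4% stronger with a median of −0.13, and 59 of the 71 ribosomal protein regions lay in that class, 23 of them weaker and 2 stronger with a median of −0.29. Rpl24, of the large subunit, had 102, 113 and 113 reads in mid-G1 and 59 and 69 in late-G1 (change in pileup rank −1.42, unadjusted p = 0.00288 in limma). Rps19 had 175, 196 and 172 reads and then 133 and 115, and Rps18 169, 187 and 187 and then 135 and 116. At each of these 3 genes the late-G1 reads lay below all mid-G1 reads. Reads were not scaled between lists, so this alone does not show a lower rank. The only call was the Rps27 region, shared with Rab13, whose pileup of 230, 260 and 253 reads in mid-G1 and 229 and 221 in late-G1 overlapped between the stages by rank while its local background did not (1.32, 1.48 and 1.54 expected reads, then 2.84 and 2.46). An ETS motif lay near the summit in 33.8% of the ribosomal protein regions, 20.1% of all regions with a protein-coding TSS and 8.56% of all regions.

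Immediate early genes, which respond to growth factors and stress, showed the next largest shift upward, with a median change of 0.40 by pileup and 6 of 15 regions stronger and 1 weaker without overlap, beside 14.5% and 16% of all regions with a protein-coding TSS. The median was 0.65 without late-G1 replicate 1 and 0.29 without replicate 2. Ier3 had 160, 185 and 158 reads in mid-G1 and 190 and 202 in late-G1, and its pileup rank went from 232, 216 and 263 to 113 and 84. Dusp1, a MAP kinase phosphatase, had 115, 120 and 101 reads and then 116 and 111, so its reads overlapped while its rank was higher in both late-G1 lists. Junb, the AP-1 subunit, had 210, 239 and 224 and then 211 and 231. Its ranks by pileup overlapped, and its fold enrichment rank changed by 2.00 (limma adjusted p = 0.0516) where its relative background went from 1.98 to 1.25. Maff had 15, 17 and 24 reads and then 27 and 33. No member was called.

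The remaining lists shifted less. The cohesin and CTCF genes (15 regions) had a median change of 0.25 by pileup with 5 stronger and 1 weaker without overlap (14.5% and 16% over all regions with a protein-coding TSS), and Rad21, the cohesin kleisin, had 39, 49 and 38 reads in mid-G1 and 44 and 50 in late-G1. The heat shock and chaperonin genes (18 regions) had a median of 0.24, cholesterol synthesis genes (21) 0.17, G1 cyclin and E2F genes (26) 0.17, replication-dependent histone genes (25) 0.08, proteasome genes (34) 0.04, spliceosomal small nuclear RNA (snRNA) genes (48) 0.03 and ATF4 targets (13) 0.03. Replication genes (35) had a median of −0.07, splicing regulators (31) −0.08, genes of the PolII machinery (50) −0.22 and snoRNA host genes (7) −0.38. By fold enrichment the medians of the G1 cyclin and snRNA lists had the opposite sign (−0.06 each). Among all these lists the called members were Ccnd3, Hsd17b7, Cct6a, Clk1, Srsf4, Hist1h2bm and 3 snRNA regions, higher in late-G1, and Cdkn1a, Psmc6, Srsf5 and 4 snRNA regions, lower. Over all regions 0.283% were called higher and 0.311% lower, and 0.514% each way of those with a protein-coding TSS. These calls were by fold enrichment, which uses the input of the stage, and 0 regions were called by pileup.

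Erythroid genes did not shift as a group. The erythroid progenitor list (19 regions) had a median change of 0.07 by pileup and −0.14 by fold enrichment, with 4 regions stronger and 3 weaker by pileup without overlap, close to the 14.5% and 16% over all regions with a protein-coding TSS. Lyl1, a helix-loop-helix factor of early haematopoiesis, had 180, 214 and 204 reads in mid-G1 and 137 and 114 in late-G1, a change in pileup rank of −1.37 (unadjusted p = 0.00133 in limma). Kit, the stem cell factor receptor, had 122, 143 and 129 reads and then 134 and 110, and ranked higher in both late-G1 lists by pileup (change 0.50) and lower in both by fold enrichment (−0.76). Of 20 globin and heme genes 9 had a region in all lists (median −0.22). Alad, of heme synthesis, had 93, 115 and 99 reads in mid-G1 and 63 and 69 in late-G1. It lay below all mid-G1 lists in late-G1 and was not called.

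**Figure D2:**
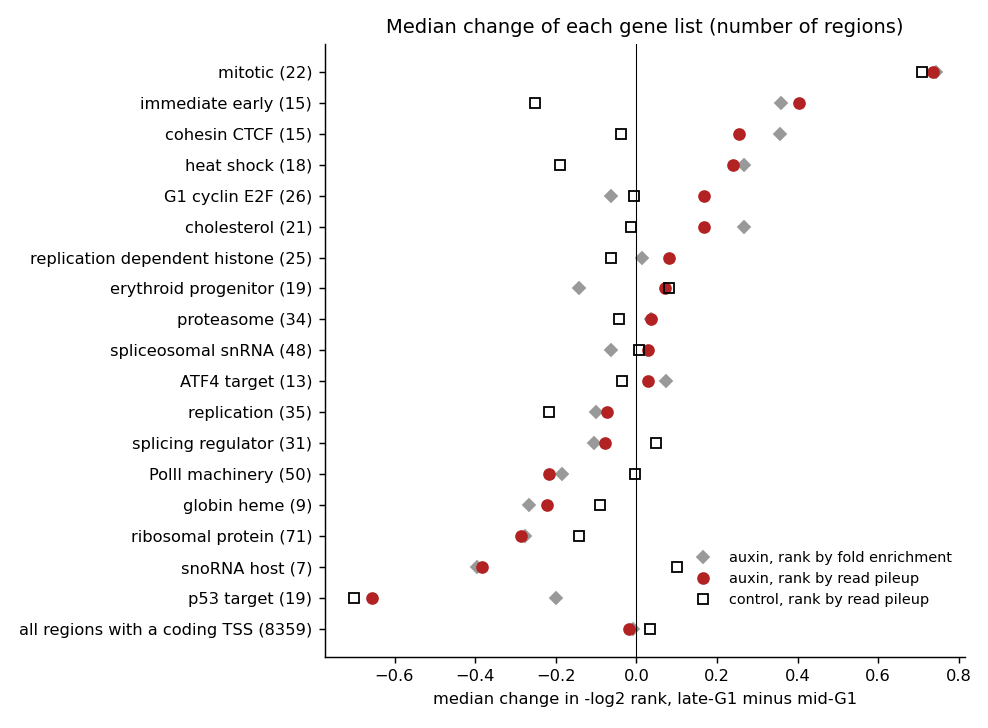
Median change in −log2 rank, late-G1 minus mid-G1, of each gene list (number of regions in parentheses): grey diamonds, auxin, rank by fold enrichment; red circles, auxin, rank by read pileup; open squares, control, rank by read pileup over the regions detected in all 10 lists. The mitotic list lies farthest to the right (0.735 by pileup) and the p53 target list farthest to the left (−0.65), and the 8359 regions with a protein-coding TSS lie near 0.

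By fold enrichment, the measure given in the lists, 72 of the 25441 regions (0.283%) ranked higher in late-G1 and 79 (0.311%) lower (limma, Benjamini-Hochberg adjusted p under 0.05), with 1822 and 1937 at an unadjusted p under 0.05. Of the 8359 regions with a protein-coding TSS 43 (0.514%) were called higher and 43 (0.514%) lower, and 18.3% and 18.7% did not overlap between the stages. The fold enrichment divides the pileup by a local background taken from the input of the stage, and this background moved with the calls. Over the regions called higher, the median background relative to the genome level was 2.09 in mid-G1 and 1.00 in late-G1, and it was higher in all mid-G1 than in all late-G1 lists in 64 of 72 regions. Over those called lower it was 1.00 in mid-G1 and 1.88 in late-G1, and higher in all late-G1 lists in 71 of 79. Among all regions the background was higher in all mid-G1 lists in 3958 and in all late-G1 lists in 4613. Ranked by pileup, 0 regions were called (limma; smallest adjusted p = 0.0617, with 1532 and 1552 at an unadjusted p under 0.05). The median change of the called regions was then 0.53 and −0.73, and 32 of the 72 and 51 of the 79 still did not overlap in the direction of the call. Leaving out 1 library removed nearly all calls: 3 higher and 1 lower were called without mid-G1 replicate 1, 2 and 2 without replicate 2, 1 and 1 without replicate 3, and 0 and 0 without either late-G1 replicate.

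**Figure D3:**
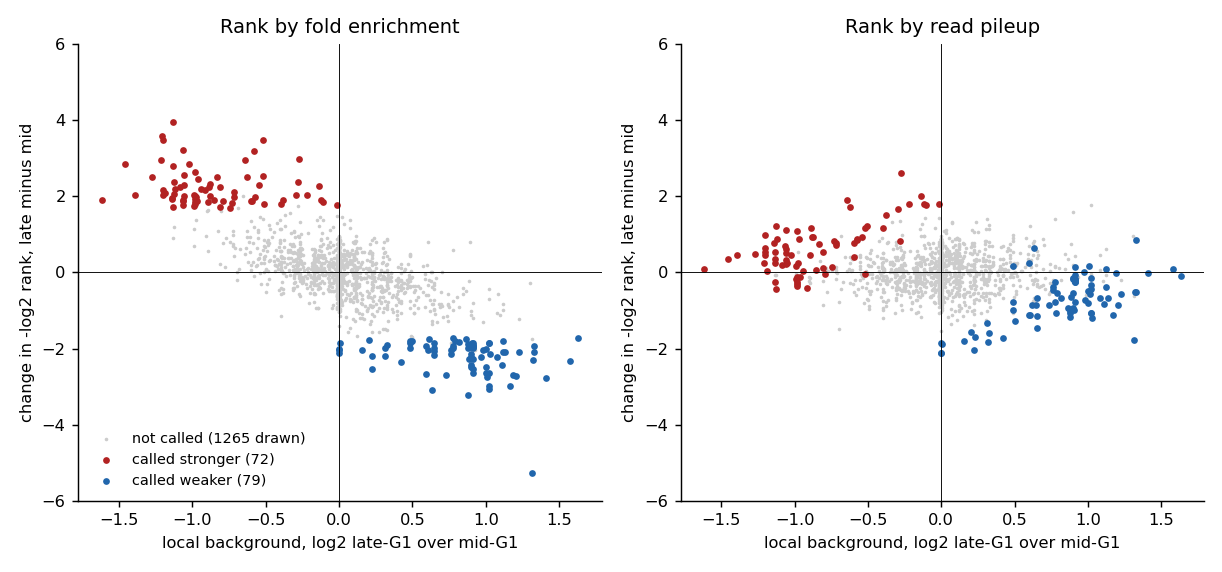
Change in −log2 rank, late-G1 minus mid-G1, by fold enrichment (left) and by read pileup (right) against the log2 ratio of local background between the stages; red, the 72 regions called higher by fold enrichment; blue, the 79 called lower; grey, 1265 of the regions not called. Most called regions lie where the background of 1 stage exceeds that of the other, and the median change of the called regions is 0.53 and −0.73 by pileup against 2.04 and −2.09 by fold enrichment.

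Among the genes called higher, some had nearly equal reads in both stages. Tfrc, the transferrin receptor through which erythroid cells take up iron, had 182, 188 and 176 reads in mid-G1 and 178 and 160 in late-G1. Its local background was 3.65, 2.80 and 3.54 expected reads in mid-G1 and 1.41 and 1.40 in late-G1, and its fold enrichment rank went from 1096, 669 and 896 to 101 and 125 (change 2.96 ± 0.34, SE, limma adjusted p = 0.0222). Gadd45b, a stress-induced growth arrest gene, had 212, 243 and 222 reads and then 218 and 231, with ranks of 459, 399 and 402 and then 50 and 28 (change 3.49 ± 0.35, SE, limma adjusted p = 0.0149). At both genes the reads overlapped between the stages and the backgrounds did not. Zfp64 had 127, 164 and 124 reads and then 138 and 118, and Rab5b, an endosomal GTPase gene, 117, 122 and 97 and then 95 and 108. Polr3d, which encodes a subunit of RNA polymerase III and shares its promoter with Mir320, had 67, 91 and 86 reads and then 82 and 85, and ranked higher in late-G1 without overlap by pileup as well (change 1.10, unadjusted p = 0.00805 in limma).

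The shared promoter of Btf3l4 and Txndc12 (chr4:108504266-108507734, summit outside genes and 390 bp from the Txndc12 TSS) was called higher with reads that did not overlap between the stages. Txndc12 encodes a thioredoxin-domain protein of the endoplasmic reticulum. The pileup was 59, 69 and 64 reads in mid-G1 and 101 and 94 in late-G1, and both late-G1 values exceeded all mid-G1 values. The local background was 1.80, 2.02 and 2.1 and then 1.59 and 1.58 expected reads. The change was 2.97 ± 0.30 (SE) by fold enrichment (limma adjusted p = 0.0149) and 2.60 by pileup (limma adjusted p = 0.0617, the smallest in that ranking).

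Several calls lay at multicopy genes, where near-identical copies can share reads and the values are uncertain. The U2 snRNA gene at the Rdm1 TSS (chr11:101487706-101491774) had the largest upward change among the called coding TSS regions, 3.96 ± 0.33 (SE, limma adjusted p = 0.00573), while its pileup was 276, 283 and 276 reads in mid-G1 and 259 and 252 in late-G1. The U1 gene at the Tex14 TSS changed by 3.48 by fold enrichment and by −0.05 by pileup, where the stages overlapped. An snRNA gene 28917 bp from the Pecr TSS (chr1:72301084-72304792) had the largest downward change among all called regions, −5.26 ± 0.44 (SE, limma adjusted p = 0.00573), with 311, 333 and 308 reads and then 292 and 299 against a background of 1.5, 1.68 and 1.74 and then 4.25 and 3.69 expected reads. At another U2 gene, 6818 bp from the Arl4d TSS (change −3.09), the reads were 292, 297 and 299 and then 283 and 299. The highest pileup in any of the 5 lists was 333 reads, so these snRNA regions lay at the top of the range. Duplicate reads had been removed from the libraries, and whether this limited the pileup at such summits was not tested. Near-equal or lower late-G1 reads at these snRNA regions therefore cannot show whether occupancy changed. Histone genes were called at Hist1h2bm (change 2.54), near Hist1h2bn (3.59) and near Hist2h2bb (3.18), and Hist1h2bm had 219, 210 and 146 reads in mid-G1 and 222 and 216 in late-G1.

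Among the genes called lower, Nat10, which encodes an RNA acetyltransferase of the nucleolus, was lower in reads as well as in rank. Its pileup was 157, 175 and 155 in mid-G1 and 97 and 108 in late-G1, and its rank went from 189, 192 and 342 to 2719 and 1684 (change −3.21 ± 0.39, SE, limma adjusted p = 0.0222; change by pileup −1.19, unadjusted p = 0.00359). Rbm25, a splicing factor gene, had 100, 154 and 106 reads and then 73 and 80, and Ppcdc, of coenzyme A synthesis, 108, 127 and 105 and then 78 and 76. In these 3 genes late-G1 reads lay below all mid-G1 reads, and the pileup rank changed by −1.06 at Rbm25 and −0.81 at Ppcdc. Reads were not scaled between lists, so lower reads alone do not show a lower rank. At 2310016C08Rik, also called lower, they were 114, 110 and 102 and then 87 and 86, while its pileup rank changed by −0.02. Actb, the cytoplasmic actin gene, in a region that also holds the Fbxl18 TSS, had 239, 261 and 246 reads and then 225 and 226. Its pileup ranks of 53, 46 and 51 and then 62 and 50 overlapped, while its background was 1.37, 1.48 and 1.54 expected reads in mid-G1 and 2.84 and 2.46 in late-G1. The ranks by pileup also overlapped at Ncoa3, a nuclear receptor coactivator gene, at Tceb1, which encodes elongin C, at Eci1, of fatty acid oxidation, and at 2310016C08Rik. Regions called lower without a protein-coding TSS included those 8954 bp from the Bag6 coding TSS (125, 163 and 125 reads, then 96 and 83), 3858 bp from Rps6 (115, 109 and 114, then 69 and 73) and 13301 bp from Atp6v0e (104, 115 and 108, then 81 and 65).

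**Figure D4:**
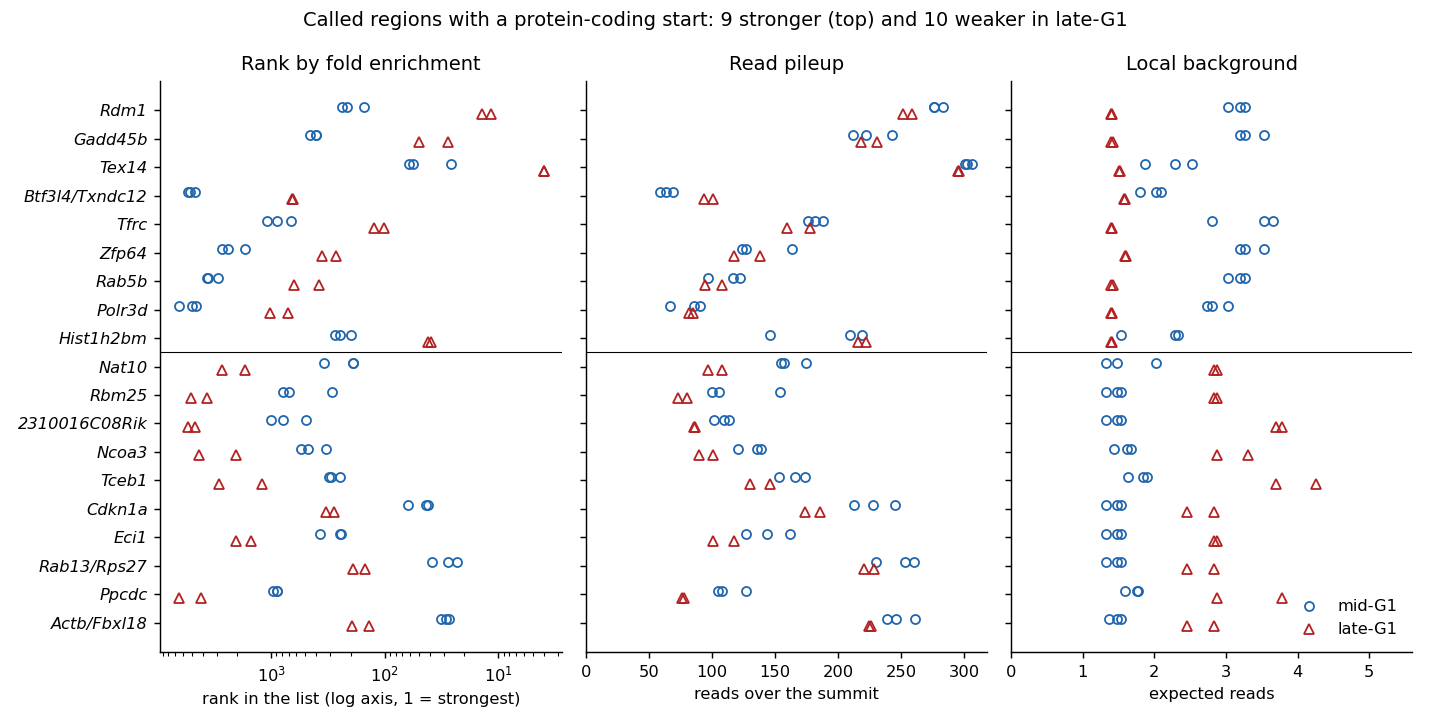
Rank by fold enrichment (log axis, left), read pileup (middle) and local background in expected reads (right) at 9 regions with a protein-coding TSS called higher in late-G1 (above the line) and 10 called lower (below it); circles, 3 mid-G1 lists; triangles, 2 late-G1 lists. The stages separate in rank and background at all 19 regions drawn. In pileup the late-G1 lists lie below the mid-G1 lists at the 10 lower regions, above them at Btf3l4/Txndc12 among the higher ones, and below them at Rdm1 and Tex14. The reads drawn are not scaled between lists.

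The 5 regions with a protein-coding TSS in each direction that had the smallest p by pileup, among those without overlap in both rankings, were chosen after the values were seen, and none passed the test in that ranking. Upward they were Btf3l4/Txndc12, Atg9a, Kif21b, Hoxb13 and Ccng2. Atg9a, an autophagy gene, had 70, 97 and 70 reads in mid-G1 and 112 and 93 in late-G1, and Ccng2, which encodes cyclin G2, 43, 50 and 65 and then 78 and 75. Downward they were Mkl2, Pcf11, 1810049H13Rik/Ccdc137, Isg20 and Arap1. The summit of the Isg20 region lay 2758 bp from the Isg20 TSS and within the gene Aen. That of the Kif21b region lay in an intron, 3930 bp from the nearest Kif21b TSS. Pcf11, a transcription termination factor gene, had 33, 41 and 30 reads in mid-G1 and 13 and 12 in late-G1 at a TSS region of 352 bp, and Mkl2, a coactivator of serum response factor, had 22, 32 and 34 and then 10 and 9. The shared promoter of 1810049H13Rik and Ccdc137 had 91, 110 and 101 reads and then 55 and 45. These 3 were also called lower by fold enrichment (limma adjusted p = 0.0293 for Pcf11, 0.0386 for Mkl2 and 0.0405 for 1810049H13Rik/Ccdc137), and at Mkl2 and 1810049H13Rik/Ccdc137 the local background overlapped between the stages. Except for Atg9a, where the late-G1 value of 93 lay below the mid-G1 replicate 2 value of 97, reads did not overlap between the stages at these named genes.

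Regions detected in 1 stage and not the other were weak. Of the 137972 regions 65865 (47.7%) were detected in exactly 1 of the 5 lists, 3802 in all 3 mid-G1 lists and neither late-G1 list, and 1889 in both late-G1 lists and no mid-G1 list. The best mean rank was 11313 among the mid-G1-only regions, 13404 bp from the Ddx56 TSS, and 14360 among the late-G1-only regions, 198372 bp from the Hs6st1 TSS. The other mid-G1-only regions by rank lay in introns of Nhej1 and Cd55 and near Epc1 and Il7, and the late-G1-only regions near Kdm6b, Ckap2l and in Hk2 and Kdr. In all, 53.7% of the mid-G1-only and 16.8% of the late-G1-only regions were also detected in both early-G1 lists with auxin. The same pattern of detection was found in the control lists for 67 (1.76%) and 210 (11.1%) of them. No share over all regions stands beside these shares, so they cannot be called high or low. Control mid-G1 replicate 1 held 50594 peaks and control late-G1 replicate 3 held 117125, and the part of peak number in the control shares was not tested. Few of the regions detected in 1 stage covered the start of a coding gene, 43 of the mid-G1-only and 31 of the late-G1-only regions. They were led by Ak1, the adenylate kinase gene, in mid-G1 and by Mex3a and Trpm4 in late-G1. With an equal number of peaks per list, 2485 regions were mid-G1-only and 2583 late-G1-only, so the larger mid-G1-only count depended on peak number. The counts also moved with single libraries, since fewer lists then had to agree. The mid-G1-only count was 7233, 6114 and 11867 without mid-G1 replicates 1, 2 and 3 and 7467 without late-G1 replicate 1. The late-G1-only count was 3041 and 3638 without mid-G1 replicates 1 and 2, and 10319 and 14362 without late-G1 replicates 1 and 2.

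In total extent the stages did not differ beyond the spread between libraries. The lists covered 53 ± 12.3 Mb in mid-G1 (SD, n = 3) and 44.7 ± 3.66 Mb in late-G1 (SD, n = 2), a log2 difference of −0.22 (exact two-sided permutation p = 0.5). The number of protein-coding genes over 1 kb with a TSS peak was 8673, 8854 and 8578 in mid-G1 and 8580 and 8559 in late-G1 (log2 difference −0.02, exact permutation p = 0.3). With 3 lists against 2 the smallest possible two-sided p is 0.1. Lists of the same stage shared more bases than lists of different stages (mean Jaccard index 0.524 and 0.486, difference 0.0382, exact one-sided permutation p = 0.1, the smallest possible). Of the called regions, 59.7% of those higher and 54.4% of those lower held a protein-coding TSS, against 32.9% of all regions tested. The lower regions included 30 of the 818 regions ranked 101 to 1000 in mid-G1. The higher regions included 19 of the 8715 regions ranked past 20000, where 0 were called lower. These classes were cut on mid-G1 ranks, which enter the change. A region ranked past 20000 also had little room to fall and still be detected in every list. The counts therefore cannot show that strong regions weakened or that weak ones did not.

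Mean coverage of gene bodies and of the sequence past gene ends by peaks was lower in late-G1. The exact test could not call either difference, since its smallest p with 3 lists against 2 is 0.1. Over 8060 genes with a TSS peak in all 5 lists, peaks covered 22.0%, 24.8% and 16.6% of the body (TSS + 500 bp to the gene end) in mid-G1 and 19.3% and 17.7% in late-G1 (difference −2.62 percentage points, exact permutation p = 0.5). Mid-G1 replicate 3, with the fewest peaks of the mid-G1 lists, lay below both late-G1 lists. In the 5 kb after the gene end they covered 36.2%, 39.3% and 29.8% in mid-G1 and 29.4% and 26.9% in late-G1 (difference −6.95 percentage points, exact permutation p = 0.2), and here the stages did not overlap. The order of the lists was similar in each class of gene length, from 40.2% and 37.9% body coverage in genes of 1 to 10 kb to 2.1% and 1.98% in genes over 150 kb (exact permutation p of 0.5 to 0.8 in all 6 classes).

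Across single genes, 0 of 6043 gene bodies were called (limma on the arcsine square root of the covered share; smallest adjusted p = 0.103), with 124 more and 633 less covered at an unadjusted p under 0.05. Both late-G1 lists covered more of the body than all mid-G1 lists in 6.88% of these genes and less in 23%. Cd68, a lysosomal glycoprotein gene of 1.94 kb, was covered over 100%, 100% and 100% in mid-G1 and 66.3% and 70.3% in late-G1, and A430005L14Rik over 93.9%, 96.9% and 93.1% and then 47.2% and 50.7%. Snapc5, which encodes a subunit of the snRNA-activating complex, was covered over 57.4%, 56.3% and 56.6% and then 12.9% and 18.1%. In the opposite direction Dmwd was covered over 5.94%, 8.56% and 6.07% in mid-G1 and 33.2% and 32.8% in late-G1, and Pold4, a subunit gene of DNA polymerase delta, over 0%, 0% and 0% and then 24.1% and 15.9%. Refbp2 (80.3%, 82.0% and 82.7%, then 100% and 100%), Gm10101 and Mterf were also covered more in late-G1, and Dcxr and Tbr1 less, down to 0% in both late-G1 lists. The Refbp2 body lies within a region that also holds a U5 snRNA gene, a multicopy gene whose values are uncertain. These 10 genes are 1.27 to 11.2 kb long, and none of them was called.

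**Figure D5:**
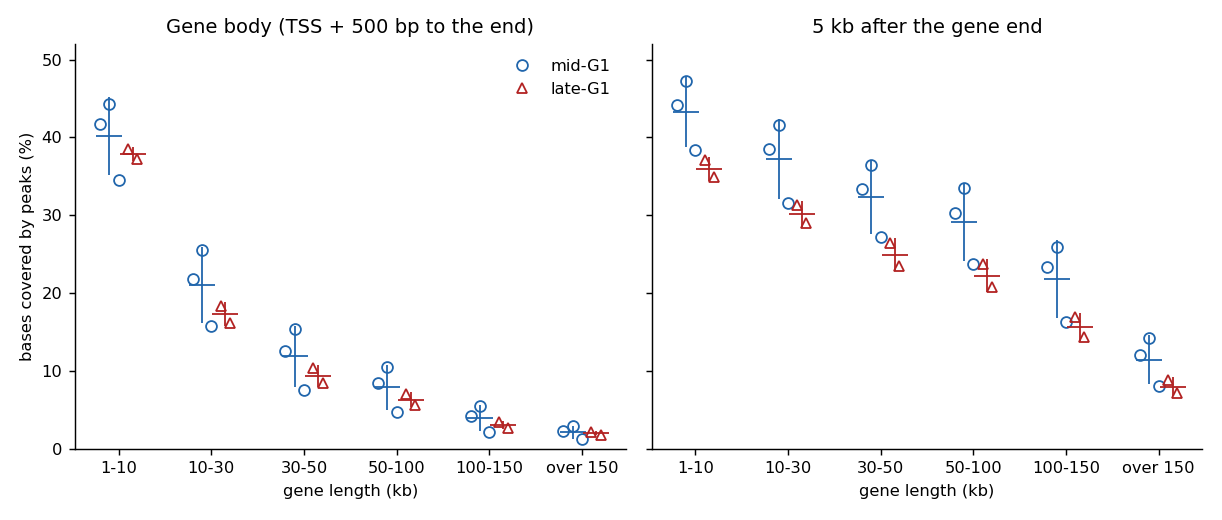
Percent of bases covered by peaks in gene bodies (left) and in the 5 kb after the gene end (right) by gene length, over 8060 genes with a TSS peak in all 5 lists; circles, mid-G1 lists; triangles, late-G1 lists; horizontal marks and bars, mean and SD (n = 3 and 2). In genes of 1 to 10 kb the mean past the gene end is 43.3% in mid-G1 and 36.0% in late-G1, and mid-G1 replicate 3 lies lowest of the mid-G1 lists in each class.

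The same interval was then compared with control cells that keep CTCF. By GEO's labels the control lists share no library with those above. Each stage shares its input between the conditions, so a background difference between the stages is common to both. It is uncertain, as stated above, whether late-G1 replicate 1 of the auxin group was auxin treated. If it was not, the changes of the auxin and control groups would be drawn together. Over 16879 regions detected in all 10 lists, 0 were called for a difference between the auxin and control changes (limma, smallest adjusted p = 0.683), with 816 (4.83%) at an unadjusted p under 0.05. By pileup 0 were called as well (796 at an unadjusted p under 0.05, smallest adjusted p = 0.945). Without late-G1 control replicate 2, which leaves 1 library in that group, 6 and 4 were called. Regions named above had these control changes by fold enrichment: Gadd45b changed by 2.96 (limma adjusted p = 0.011), the snRNA region near Pecr by −5.78 and Nat10 by −2.04. Tfrc changed by 2.13 in control (limma adjusted p = 0.083). Tex14 and Hist1h2bm, at 3.48 and 2.54 with auxin, changed by 0.09 and 0.02 in control.

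The shifts of the mitotic and p53 target genes were of similar size in control by pileup, with medians of 0.71 (19 regions) and −0.70 (18 regions). With auxin the medians were 0.735 (22 regions) and −0.65 (19 regions), and 0.50 and −0.60 without late-G1 replicate 1. Of the mitotic regions 6 ranked stronger in both late-G1 control lists than in all mid-G1 control lists and 1 weaker, and of the p53 target regions 0 ranked stronger and 9 weaker, beside 8.42% stronger and 7.94% weaker of 7697 regions with a protein-coding TSS in control. Cdkn1a changed by −2.65 with auxin and −2.78 in control by fold enrichment (control adjusted p = 0.031 in limma), which uses the input shared by both conditions. By pileup Cdkn1a changed by −0.79 with auxin and by −0.47 in control, where the stages overlapped. Nek2 changed by 1.51 with auxin and 1.06 in control by pileup. The immediate early genes had a median of 0.40 with auxin and −0.25 in control (12 regions), the heat shock genes 0.24 and −0.19 (18 regions) and the snoRNA host genes −0.38 and 0.10 (7 regions), and these differences between conditions were not tested as lists. Control mid-G1 replicate 1 was the shallowest library here, and its part in the control medians was not tested.

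The regions with the smallest unadjusted p for a difference between the conditions, none of them called, included the Mir17hg cluster. This microRNA host gene (chr14:115438573-115446891) ranked 1333, 1200 and 1307 in mid-G1 and 622 and 446 in late-G1 with auxin, and 674, 712 and 540 and then 993 and 1756 in control (difference 2.33 ± 0.46, SE, limma adjusted p = 0.683). A neighbouring region, 4932 bp from Mir92-1, ranked 5449, 7123 and 5581 and then 8166 and 6567 with auxin, and 718, 1159 and 701 and then 4753 and 6103 in control. Nop2, which encodes a ribosomal RNA methyltransferase, changed by 0.48 with auxin and −1.89 in control, Zfp39 by 1.09 and −1.24, and the Hist1h1a/Hist1h3a/Hist1h4a/Hist1h4b region by 0.21 and −2.23. In the other direction the region 13301 bp from Atp6v0e changed by −2.71 with auxin and 0.12 in control, Plk1s1 by −0.80 and 1.40, Tmem179b by −1.83 and 0.23, Hnrnpa3 by −1.45 and 0.69 and Pelo by −0.68 and 1.14 (limma adjusted p of 0.683 to 0.94).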

How the data were processed

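The authors deposited 1 MACS2 peak list per library, with the fold enrichment over background (a ratio), the −log10 p-value and −log10 q-value of each summit, and a score that was not used. Per the paper's methods, single-end reads were aligned to mm9 with Bowtie2 (2.2.9), low-quality, duplicate, mitochondrial and blacklisted reads were removed (SAMtools 0.1.19, bedtools 2.27.1), and MACS2 (2.1.0) called peaks in each library with that stage's input as background. Peaks of the 5 lists were merged and each region took its strongest peak. Ranks were compared in limma 3.58.1 (R 4.3.3) with Benjamini-Hochberg adjustment, and list totals by exact permutation (Python 3.11.15, scipy 1.17.1). Read pileup and local background were solved from fold enrichment and p-value, and were whole-number pileups in 100% of peaks (tolerance 0.1%). The ranking by pileup, its list medians without each late-G1 library, the 500-bp summit window and the p53 motif search were chosen after seeing the data. The members and gene lists were chosen with earlier results of these data known. The named genes were, per direction, the 10 called regions with a coding TSS and the 5 without that changed most and did not overlap between stages, the 5 best-ranked regions of 1 stage, the 5 gene bodies and the 5 differences from control with the smallest p, and the called members of each list or else the 4 with the smallest p. Further list members and the regions led by pileup were chosen after their values were seen. Sequences are from NCBIM37 (mm9), around the middle of the 5 lists' summits. Tests were checked on simulated data. Peak lists hold no counts, so depth was recovered from the genome background of the peak values. Some items that these rules select are not reported here.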

Additional observations from a re-analysis of the deposited data

How the results depend on the processing

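The counts of regions called higher and lower (72 and 79) were 170 and 179 with a limma trend, 124 and 129 with −log10 q of 5 or more, 183 and 141 with peaks merged within 1 kb, 172 and 150 with shared ranks, 115 and 124 with 14 lists fitted together, 208 and 176 in 500-bp summit windows, and 2 and 1 by −log10 p. With an equal number of peaks per list 126 were called lower. They were 0 and 0 by normal score (limma; 251 and 2136 at an unadjusted p under 0.05), by quantile-normalised fold (1981 and 1970) and by recovered pileup (1532 and 1552), and 0 to 3 and 0 to 2 with 1 library left out. Late-G1-only regions were 1182 with the stricter q, 452 with 1 kb merging and 2583 with equal peaks. Mid-G1-only regions were 2485 with equal peaks and 1057 with 1 kb merging. With 1 library left out the counts were 2182 to 14362 late-G1-only and 5415 to 11867 mid-G1-only.

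Signs turned for the TSS share of peaks (−0.28 percentage points with equal peaks), median width (log2 0.12 with 1 kb merging) and body coverage of genes over 150 kb (0.13 percentage points with equal peaks), and by pileup for Rdm1 (−0.25), Tex14 (−0.051) and the region near Arl4d (0.65). The cause was not tested. With 1 library left out the ranges were −0.36 to −0.071 for peak number, −0.41 to −0.071 for covered length, −0.12 to 0.033 for median width and −0.032 to −0.0094 for coding TSS genes (all log2), 0.15 to 2.18 percentage points for TSS share and 0.0206 to 0.0619 for the Jaccard difference. For coverage they were −9.54 to −4.85 percentage points past gene ends, and in bodies −5.21 to −0.32 (1 to 10 kb), −6.37 to −1.55 (10 to 30 kb), −4.64 to −0.72 (30 to 50 kb), −3.11 to −0.28 (50 to 100 kb), −1.70 to −0.046 (100 to 150 kb) and −0.59 to 0.27 (over 150 kb). Calls against control were 0 to 6 and 0 to 4, and gene body calls 0.

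The replicate numbers of the stages share only a number (deviations correlated at 0.034 and −0.0001). With the replicate block 30 regions were called higher and 29 lower, and 0 gene bodies and 0 differences from control. With equal peaks the peak number is equal by construction and has no value. Depth limits weak peaks, and 3 lists against 2 cannot reach an exact p under 0.1.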
